A study of Mus musculus with 6 samples.

Results

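The genes described here encode the LINC complex, which links the nucleus to the cytoskeleton, and the nuclear lamina to which it is anchored: the nesprin genes Syne1, Syne2, Syne3 and Syne4, the SUN genes Sun1 and Sun2, the lamin genes Lmna, Lmnb1 and Lmnb2, and the emerin gene Emd. They were picked by their gene symbols as 10 of the 24411 genes listed, with earlier results of these data known. All 10 passed the filter on low counts that left 15303 genes for the tests. RNA was sequenced from microdissected cochlear sensory epithelium of C57BL/6N mice at P9, in 3 libraries of Kir2.1-OE mice and 3 of littermate controls, each made from a pool of 8 cochleae of 4 mice. Both genotypes carried 1 copy of Otof-rtTA, in which the promoter of Otof drives the transactivator in hair cells, mainly the inner hair cells (IHCs). Both received doxycycline (DOX) through their mothers, whose drinking water held 0.5 mg/ml during pregnancy and nursing. The Kir2.1-OE mice carried in addition 1 copy of tetO-Kir2.1-IRES-tau-lacZ, so that DOX switched on Kir2.1, a K+ channel that holds the membrane potential down, in those cells. The libraries nevertheless hold the RNA of all the dissected tissue, in which IHCs are a small part.

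In a LINC complex, SUN proteins cross the inner nuclear membrane and bind the lamina on their nuclear side and, in the space between the membranes, the KASH tail of a nesprin that crosses the outer membrane. The nesprins differ in what they hold outside the nucleus: the giant forms of nesprin-1 and nesprin-2 bind actin, nesprin-3 binds plectin and through it intermediate filaments, and nesprin-4 binds kinesin-1, a motor that walks along microtubules. In the cochlea, nesprin-4 and SUN1 are needed to keep the nuclei of outer hair cells at the base of the cell, and hearing is lost in mice and people without nesprin-4.

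The tail that the SUN proteins grasp is encoded at the 3′ end of the coding sequence of each nesprin gene, so this stretch is shown for the 4 genes as the feature that makes them 1 family. Each line gives the last 90 coding bases of the longest coding transcript in the mm10 genome (GENCODE vM21), 5′ to 3′ on the gene's strand, and the capitals mark the last 5 codons, stop codon included.
Syne1: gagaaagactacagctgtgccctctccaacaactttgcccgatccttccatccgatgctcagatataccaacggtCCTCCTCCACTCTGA
Syne2: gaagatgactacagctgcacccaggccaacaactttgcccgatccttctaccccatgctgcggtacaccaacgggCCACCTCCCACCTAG
Syne3: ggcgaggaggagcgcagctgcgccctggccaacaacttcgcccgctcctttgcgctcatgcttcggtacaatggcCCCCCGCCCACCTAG
Syne4: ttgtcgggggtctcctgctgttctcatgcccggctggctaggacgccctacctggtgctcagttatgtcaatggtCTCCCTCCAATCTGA
They lie at chr10:5022007-5022096 (minus strand), chr12:76109955-76110044 (plus strand), chr12:104932165-104932254 (minus strand) and chr7:30318912-30319001 (plus strand), each within 1 coding exon. Among the codons in capitals, 3 were proline codons (CCN) in Syne1, Syne2 and Syne3 and 2 in Syne4. Each pair was compared with 1 codon left out of each sequence, in the way that gave the best match. On that basis 77.0% of 87 bases were identical between Syne1 and Syne2 and 78.2% between Syne2 and Syne3. Syne4 was the least like the others in this comparison, with 58.6% against Syne1, 52.9% against Syne2 and 43.7% against Syne3. With no codon left out, 75.6% of 90 bases were identical between Syne1 and Syne2. The other pairs, with or without Syne4, had 40.0% to 48.9%. The whole coding sequences, this end included, were of very unequal length, with 26400 nt in Syne1, 20613 nt in Syne2, 2667 nt in Syne3 and 1167 nt in Syne4.

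Kcnj2, the gene of Kir2.1, was read first as a check of the labels. Its normalized counts (counts scaled to the same effective library size) were 3608, 3809 and 2211 in the Kir2.1-OE libraries, in the order of their numbers as in all lists of values here, and 235.5, 227.8 and 225.7 in the controls. All Kir2.1-OE libraries were thus far above all controls, with a log2 fold change of 3.80 (SE 0.20, adjusted p = 7.04e-05, edgeR's quasi-likelihood test). Between 35430940 and 41205047 counts per library were assigned to genes. The 10 hair cell markers summed to between 1272 and 1542 CPM (counts scaled to a fixed library total) in the Kir2.1-OE libraries. In the controls they summed to between 1269 and 1423 CPM. Of these markers 3, Myo7a, Otof and Slc26a5, were called higher and 0 lower, against 15.5% and 5.08% of all genes tested. Gfi1, Ocm and Cib2 had negative log2 fold changes (-0.25, -0.30 and -0.51) and were not called. Of these, Cib2 had an adjusted p of 0.00211 (edgeR), with all Kir2.1-OE libraries below all controls, and missed only the 1.5-fold threshold. Myo6 and Espn likewise lay above all controls in every Kir2.1-OE library (adjusted p = 0.00411 and 0.0154, edgeR), under 1.5-fold. With the length and GC offsets described below, Myo7a went from a log2 fold change of 1.17 to 0.31 and Otof from 0.76 to -0.10, neither called, and Slc26a5 (0.71) was still called. The median log2 fold change of the 10 markers went from 0.23 to -0.03 with the offsets. In pooled tissue, more cells of a type and more RNA per cell cannot be told apart.

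RNA of Syne1, Syne2 and Syne3 was 3.39, 3.02 and 3.67 times as abundant in Kir2.1-OE tissue as in controls (ratio of mean normalized counts), while Syne4, Sun1, Lmnb1 and Lmnb2 showed no difference past the test, and Sun2, Lmna and Emd differed by less than 1.5-fold. With genes called at an adjusted p under 0.05 and a fold change above 1.5, 3 of the 10 genes were called higher, against 15.5% of all genes tested, 0 were called lower, against 5.08%, and 7 were not called. DESeq2's Wald test and limma-voom gave the same 3 and 0, and at an unadjusted p under 0.05 the gene with a lower value was Emd alone. With an adjusted p under 0.05 and no fold change threshold, 5 were higher and 1 lower, against 27.3% and 23.5% of all genes. For 5 genes every Kir2.1-OE library exceeded every control and for 1 gene the reverse held, against 31.7% and 29.9% of all genes, and the groups overlapped for 4. Their median log2 fold change was 0.21, against 0.01 for all genes tested.

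**Figure D1:**
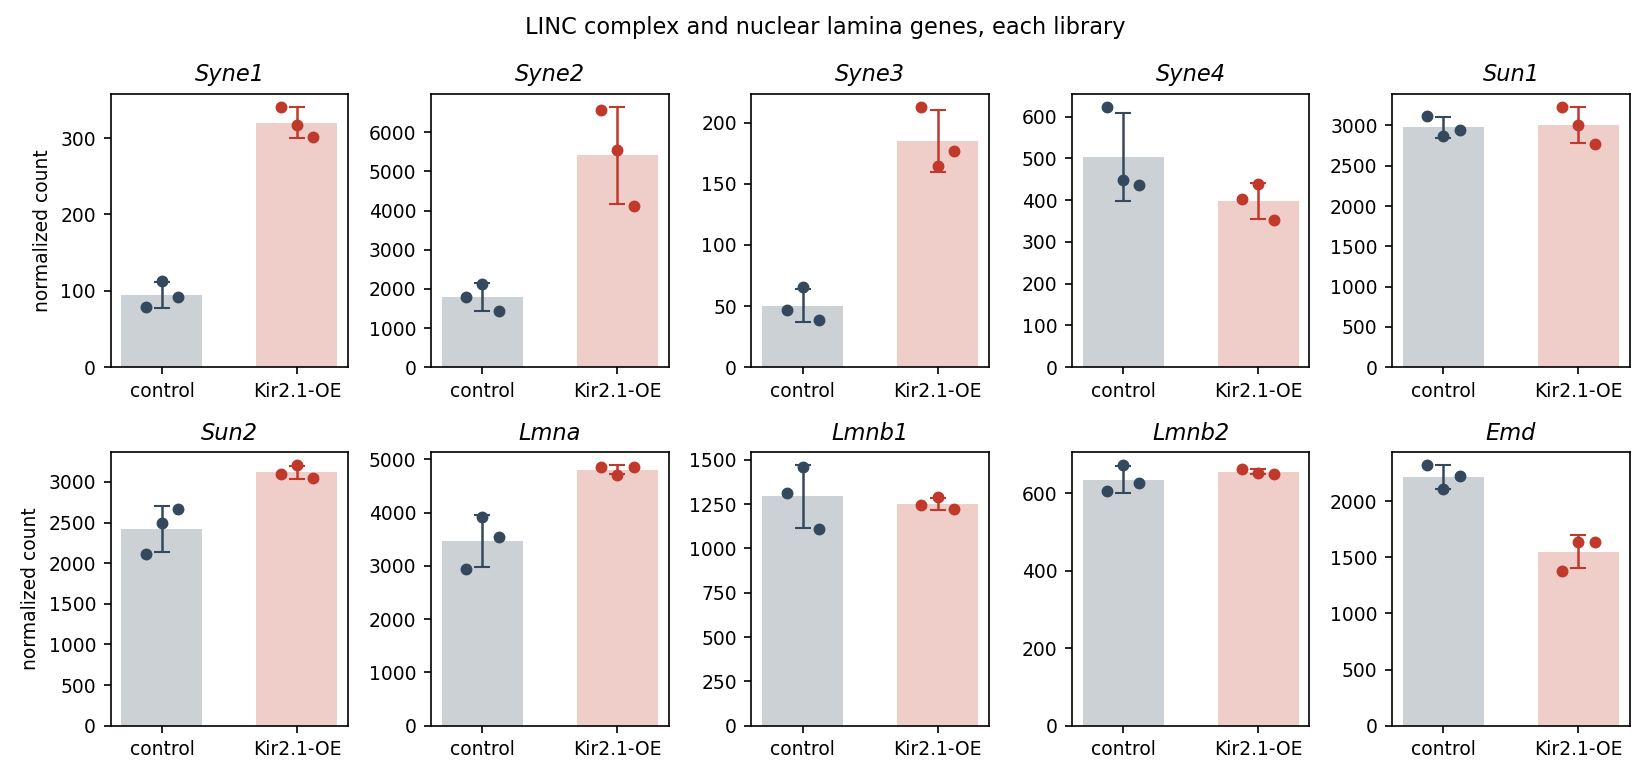
Normalized counts (vertical axes, from 0, 1 scale per gene) of the 10 genes; points are libraries, bars means of 3 libraries and whiskers SD. The Kir2.1-OE and control points do not overlap for Syne1, Syne2, Syne3, Sun2, Lmna and Emd, and they overlap for Syne4, Sun1, Lmnb1 and Lmnb2.

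Syne1 (ENSMUSG00000096054.3, chr10:5020917-5551482, minus strand) encodes nesprin-1, whose giant form spans from the nucleus to actin filaments. Its normalized counts were 341.4, 317.4 and 301.1 in Kir2.1-OE and 78.2, 112.5 and 92.5 in control libraries. The groups were far apart, with a coefficient of variation of 6.33% in Kir2.1-OE and 18.3% in control libraries. Syne1 rose by 1.76 on the log2 scale (SE 0.17, 95% interval 1.38 to 2.13, adjusted p = 1.46e-04, edgeR). Syne2 (ENSMUSG00000063450.14, chr12:75818134-76110926, plus strand), the gene of nesprin-2, had counts of 6580.1, 5559 and 4108 in Kir2.1-OE and 1805, 2136 and 1437 in control libraries. Kir2.1-OE replicate 3 was the lowest of its group and still lay well above the highest control. Syne2 rose by 1.59 (SE 0.18, interval 1.19 to 2.002, adjusted p = 2.21e-04). Counts are per gene and do not tell the giant forms from the shorter annotated transcripts of Syne1 and Syne2.

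Syne3 (ENSMUSG00000054150.12, chr12:104929933-105009809, minus strand), which encodes the plectin-binding nesprin-3, had counts of 213.3, 164.7 and 176.5 in Kir2.1-OE and 47.1, 65.3 and 38.6 in control libraries. Again no library of one genotype reached the range of the other. Its log2 fold change of 1.87 (SE 0.23, interval 1.35 to 2.38, adjusted p = 2.85e-04) was the highest of the 10 genes in edgeR, although its interval overlapped those of Syne1 and Syne2. A stricter test, glmTreat against a log2 fold change of 0.6, called the same number of genes higher, 3 of 10, against 5.44% of all genes.

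Syne4 (ENSMUSG00000019737.14, chr7:30314807-30319046, plus strand), the nesprin gene needed for the position of outer hair cell nuclei, had another pattern. Its counts were 403.9, 439.2 and 352.9 in Kir2.1-OE and 624.3, 449.3 and 435.2 in control libraries. Control replicate 1 stood above the rest, and the other controls lay within or next to the Kir2.1-OE range. The log2 fold change of -0.33 (SE 0.16, interval -0.68 to 0.02) had an adjusted p of 0.0999 in edgeR, and without control replicate 1 it was -0.15. The interval thus reached past the 1.5-fold bound on the lower side and ended near 0 on the upper. The genes whose log2 CPM followed Syne4 most closely over the 6 libraries were Dcaf15 (Pearson r = 0.994), Fam198a (0.993) and Lag3 (0.993), of 13642 compared, and 29 genes had an r above 0.95; these are a description over 6 points that share their libraries with many genes.

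Among the SUN genes, Sun1 (ENSMUSG00000036817.14, chr5:139200637-139249840, plus strand), the partner of nesprin-4 in hair cells, had counts of 3233, 3011 and 2774 in Kir2.1-OE and 3124, 2863 and 2949 in control libraries. The control range lay inside that of the Kir2.1-OE libraries. The log2 fold change of Sun1 was 0.01 (SE 0.08, adjusted p = 0.899, edgeR), with an interval from -0.16 to 0.19 that lies inside the 1.5-fold bounds. Closest to Sun1 over the 6 libraries were Suv420h2 (Pearson r = 0.984), Prss22 (0.977) and Snai3 (0.963), and 5 genes were above 0.95. Sun2 (ENSMUSG00000042524.14, chr15:79724070-79742536, minus strand) had counts of 3095, 3208 and 3052 in Kir2.1-OE and 2108, 2490 and 2666 in control libraries. Its groups did not overlap, and its log2 fold change of 0.37 (SE 0.09, interval 0.16 to 0.57, adjusted p = 0.00778) stayed under 1.5-fold and became -0.06 with the length and GC offsets described below. The sign of Sun2 turned under 3 of the 23 alternatives tried, and its longest transcript, used for these offsets, keeps an intron.

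The lamins form the meshwork under the inner nuclear membrane, with A-type lamins from Lmna and B-type lamins from Lmnb1 and Lmnb2. Lmna (ENSMUSG00000028063.15, chr3:88480147-88509956, minus strand) had counts of 4852, 4709 and 4866 in Kir2.1-OE and 2947, 3919 and 3535 in control libraries. The Kir2.1-OE libraries were all above the controls and lay close together, with a coefficient of variation of 1.8%, against 14.1% in controls. The log2 fold change of Lmna was 0.47 (SE 0.10, interval 0.25 to 0.69, adjusted p = 0.00362, edgeR), below the 1.5-fold threshold. Lmnb1 (ENSMUSG00000024590.8, on chromosome 18) had counts of 1245, 1290 and 1219 in Kir2.1-OE and 1312, 1460 and 1108 in control libraries, and Lmnb2 (ENSMUSG00000062075.13, chr10:80901203-80918245, minus strand) had 663.3, 653.8 and 650.9 against 607.3, 673.4 and 626.3. For both B-type genes all Kir2.1-OE libraries lay inside the control range. The log2 fold change was -0.05 for Lmnb1 (interval -0.28 to 0.18, adjusted p = 0.716) and 0.05 for Lmnb2 (interval -0.15 to 0.24, adjusted p = 0.685).

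Emd (ENSMUSG00000001964.14, chrX:74254687-74261548, plus strand) encodes emerin, an inner nuclear membrane protein that binds lamins. It had counts of 1380.0, 1633 and 1634 in Kir2.1-OE and 2320.0, 2110.2 and 2222 in control libraries. All Kir2.1-OE libraries were below all controls. The log2 fold change of -0.52 (SE 0.08, interval -0.71 to -0.33, adjusted p = 0.00108, edgeR) missed the 1.5-fold threshold, and with upper quartile scaling it was -0.61 and was called lower. Of the 7 genes not called, 4 had an interval inside the 1.5-fold bounds.

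Ratios between the genes inside each library do not depend on the scaling between libraries. The ratio of Lmna to Lmnb1 plus Lmnb2 was 2.54, 2.42 and 2.60 in Kir2.1-OE and 1.54, 1.84 and 2.04 in control libraries, 1.41-fold higher in Kir2.1-OE with no overlap. Sun1 to Sun2 was 1.04, 0.939 and 0.909 in Kir2.1-OE and 1.48, 1.15 and 1.11 in control libraries, again with no overlap. Syne4, whose counts exceeded those of Syne3 by 13.3, 6.88 and 11.3 times in the controls, exceeded them by 1.89, 2.67 and 2 times in Kir2.1-OE libraries. The log2 ratio of Syne4 to Syne3 was thus 2.22 lower in Kir2.1-OE, or 4.67-fold, and that of Syne4 to Syne1 plus Syne2 was 3.78-fold lower. These ratios set genes of unlike length against each other, and with the length and GC trend of each library taken out, as described below, they were 2.88-fold and 1.81-fold lower. Syne4 to Kif5b, a heavy chain of its motor kinesin-1, was 0.0316, 0.0397 and 0.0340 in Kir2.1-OE and 0.111, 0.0513 and 0.0590 in control libraries. Each of these 5 ratios had p = 0.10 in a two-sided exact permutation test, the smallest value that 3 pools against 3 allow, and 0.14 after adjustment over the 7 ratios computed, so none can pass the threshold. With the length and GC trend taken out, the groups overlapped for Sun1 to Sun2 (log2 difference -0.147 in place of -0.360), and the other 4 still did not overlap. The groups overlapped for Lmnb1 to Lmnb2 (log2 difference -0.09, exact permutation p = 0.40) and for Syne1 to Syne2 (log2 difference 0.188, exact permutation p = 0.50). With the trend taken out, Lmnb1 to Lmnb2 turned to a log2 difference of 0.186, with no overlap.

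**Figure D2:**
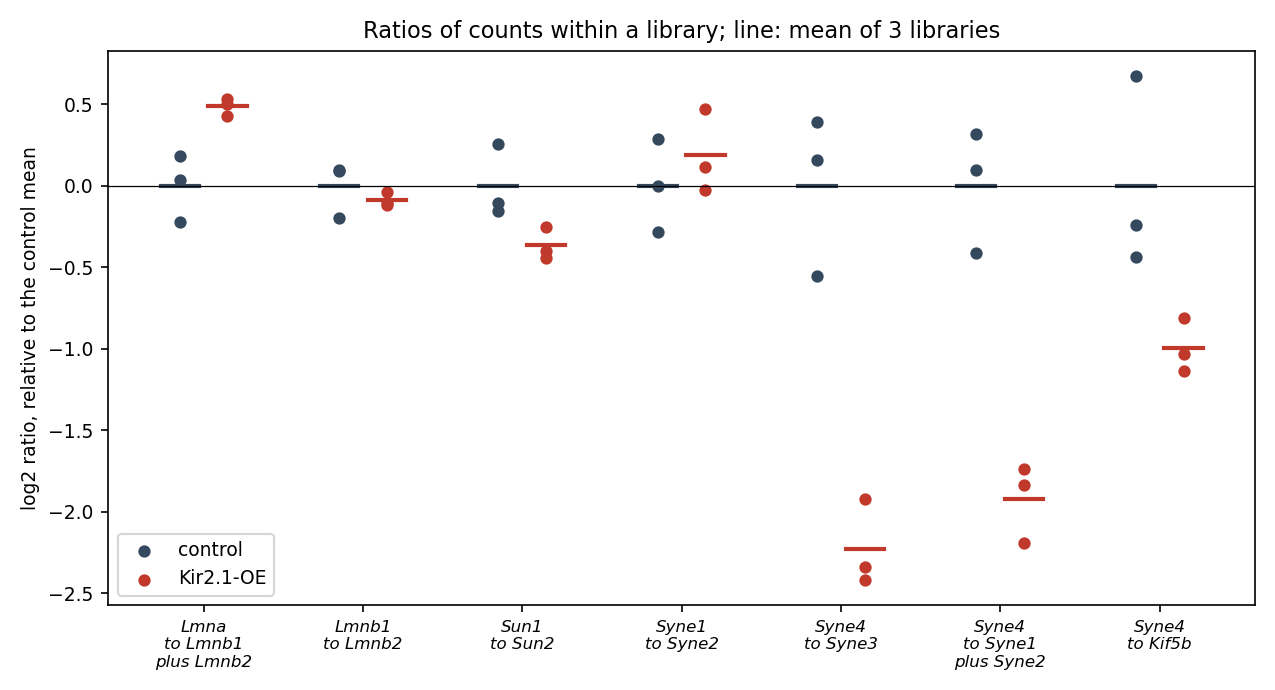
The 7 ratios of normalized counts within a library, as log2 values relative to the control mean (vertical axis); points are libraries and lines means of 3. Syne4 to Syne3 and Syne4 to Syne1 plus Syne2 lie lowest in Kir2.1-OE, at log2 differences of -2.22 and -1.92, and the points of Lmnb1 to Lmnb2 and of Syne1 to Syne2 overlap between the groups.

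Levels can be set between genes only per length, here as CPM per kilobase of the longest annotated transcript (mean ± SD, n = 3). In controls Emd was highest at 37.1 ± 1.76, followed by Lmna at 23.4 ± 3.31, Sun1 at 19.2 ± 0.856 and Sun2 at 14.6 ± 1.73. Lmnb1 at 12.1 ± 1.66, Syne4 at 9.9 ± 2.07 and Lmnb2 at 4.80 ± 0.257 came next. Syne4 was the most abundant nesprin RNA on this scale, above Syne2 at 2.20 ± 0.43, Syne3 at 0.255 ± 0.0692 and Syne1 at 0.0902 ± 0.0165. The libraries of neighbours overlapped for Lmna and Sun1, for Sun2 and Lmnb1 and for Lmnb1 and Syne4, so these pairs could not be ordered. In Kir2.1-OE libraries Lmna led at 32.5 ± 0.585, ahead of Emd at 25.9 ± 2.45, and Syne2 at 6.66 ± 1.53 overlapped with Syne4 at 7.85 ± 0.854. Syne3 reached 0.937 ± 0.128 and Syne1 0.306 ± 0.0194 but kept the lowest ranks. The order depends on the length used. With the median protein coding transcript, which for Syne2 is 1443.5 nt in place of 21704 nt, Sun1 was first among controls at 103. Syne2, at 33.1, then lay above Syne4. For Sun2 (4413 nt) and Lmna (3948 nt) the longest annotated transcript keeps an intron and is not annotated as protein coding. Their median coding transcripts are 2092.5 nt and 1778.5 nt. The longest transcripts were also used for the length classes and offsets below.

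**Figure D3:**
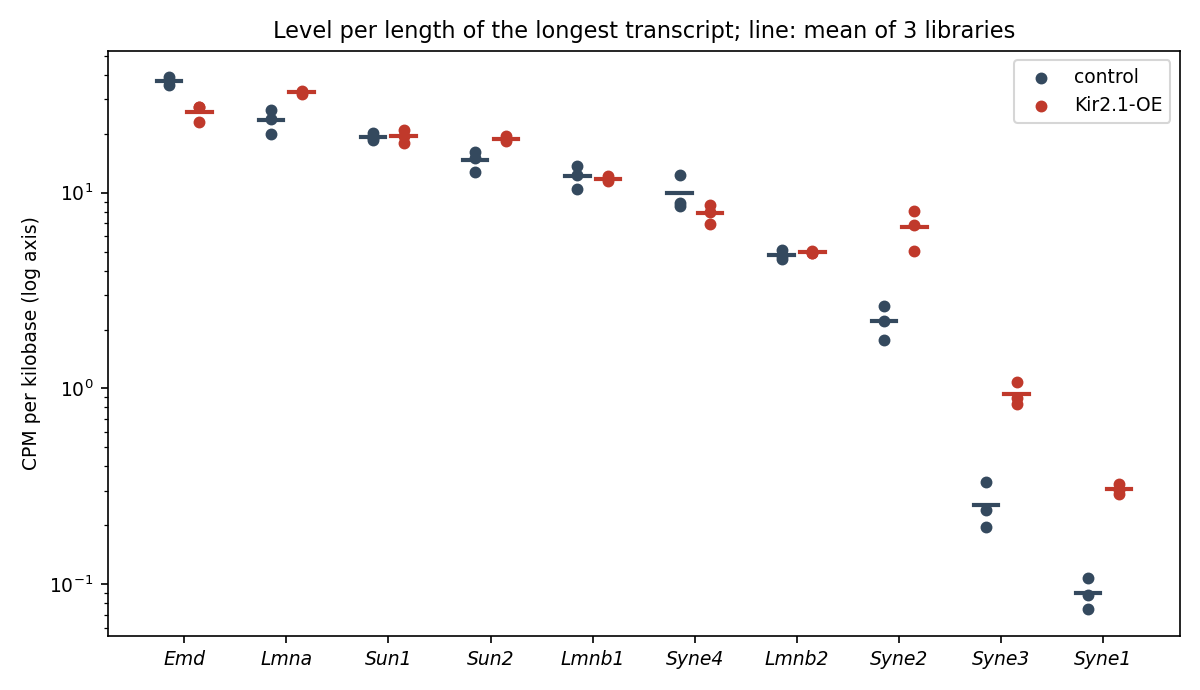
CPM per kilobase of the longest transcript (vertical axis, log scale) of the 10 genes, ordered by the control mean; points are libraries and lines means of 3. Syne1, Syne2 and Syne3 have the lowest control levels, between 0.0902 and 2.20, and lie higher in all Kir2.1-OE libraries.

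Transcript length moved with the genotype over the whole transcriptome, and the 10 genes lie far apart in length. Over the 15192 genes tested that have an annotated length, Spearman's rho between log2 fold change and length was 0.557, across genes that are not independent. The median log2 fold change was -0.30 in the 2506 genes of 1000 to 2000 nt, the class of Emd (1595 nt) and Syne4 (1355 nt), and -0.06 in the 6252 genes of 2000 to 4000 nt, the class of the lamin genes. It was 0.29 in the 4892 genes of 4000 to 8000 nt, which hold Syne3 (5263 nt), Sun1 (4134 nt) and Sun2 (4413 nt). Among the 37 genes above 16000 nt, which include Syne1 (27908 nt) and Syne2 (21704 nt), the median was 1.14 (quartiles 0.45 and 1.59) and 24 were called higher. Within that class 4 genes had a higher log2 fold change than Syne1 and 9 a higher one than Syne2. Syne3 stood further out, with 29 of the 4892 genes of its class above it. In the class of Emd and Syne4, 516 of 2506 genes had a lower log2 fold change than Emd and 1134 a lower one than Syne4. Across the 10 genes themselves, log2 fold change and length had a Spearman's rho of 0.891, a description of 10 points that share the same libraries.

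**Figure D4:**
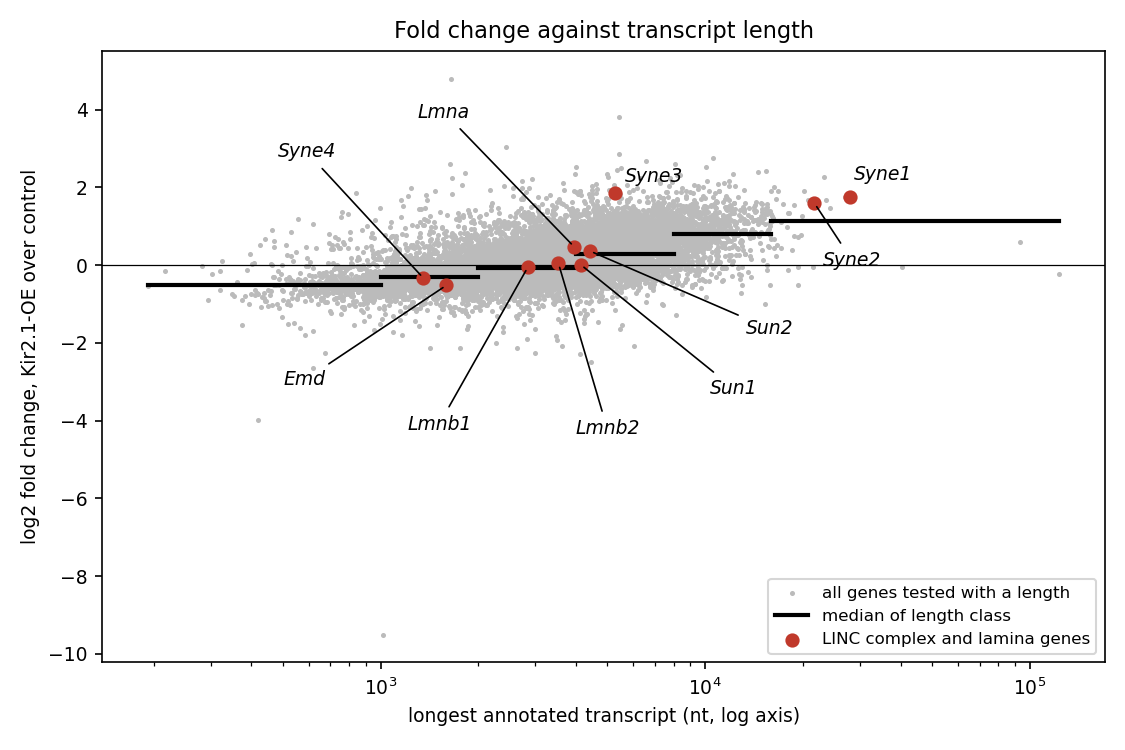
Log2 fold change, Kir2.1-OE over control (vertical axis), against the longest annotated transcript (horizontal axis, nt, log scale); grey points are the 15192 genes tested with a length, black lines medians of 6 length classes and red points the 10 genes. Emd lies at -0.52 and 1595 nt, Syne1 at 1.76 and 27908 nt, and Syne3 at 1.87 and 5263 nt.

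For this reason the model was fitted again with offsets that take out each library's own trend with transcript length and GC content. With these offsets 3 of the 10 genes were called higher and 0 lower, against 6.43% and 3.44% of all genes, and the median log2 fold change was -0.07 in the 10 genes and -0.04 in all genes. Of the 3, Syne3 kept the highest log2 fold change, 1.35 (adjusted p = 0.00206, edgeR), and it was called higher under all 29 alternatives tried, between 1.21 and 2.104. Syne1 had 0.81 (adjusted p = 0.0064) and Syne2 to 0.70 (adjusted p = 0.00573). Both lie near the end of the length range, with 3 genes longer than Syne1 and 8 longer than Syne2. With straight local lines in place of a curved trend, Syne1 had 0.42 (adjusted p = 0.0634) and Syne2 0.41 (adjusted p = 0.0359), and neither was called. With the curved trend, Syne1 was not called without control replicate 1 (0.58) and Syne2 not without Kir2.1-OE replicate 1 (0.57). Offsets from the median coding transcript, which is 3894 nt for Syne1, gave 1.41 for Syne1, 1.71 for Syne2 and 1.23 for Syne3, all called higher. For the other genes the offsets gave log2 fold changes of -0.17 for Syne4, -0.20 for Sun1, -0.06 for Sun2, 0.25 for Lmna, -0.07 for Lmnb1, -0.24 for Lmnb2 and -0.30 for Emd, none of them called. Lmnb2 (adjusted p = 0.0431) and Emd (adjusted p = 0.0143) passed the adjusted p threshold with the offsets (edgeR) but not the 1.5-fold threshold. Across the 10 genes, log2 fold change with the offsets and length still had a Spearman's rho of 0.770. What part of each difference goes with length was not tested further.

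**Figure D5:**
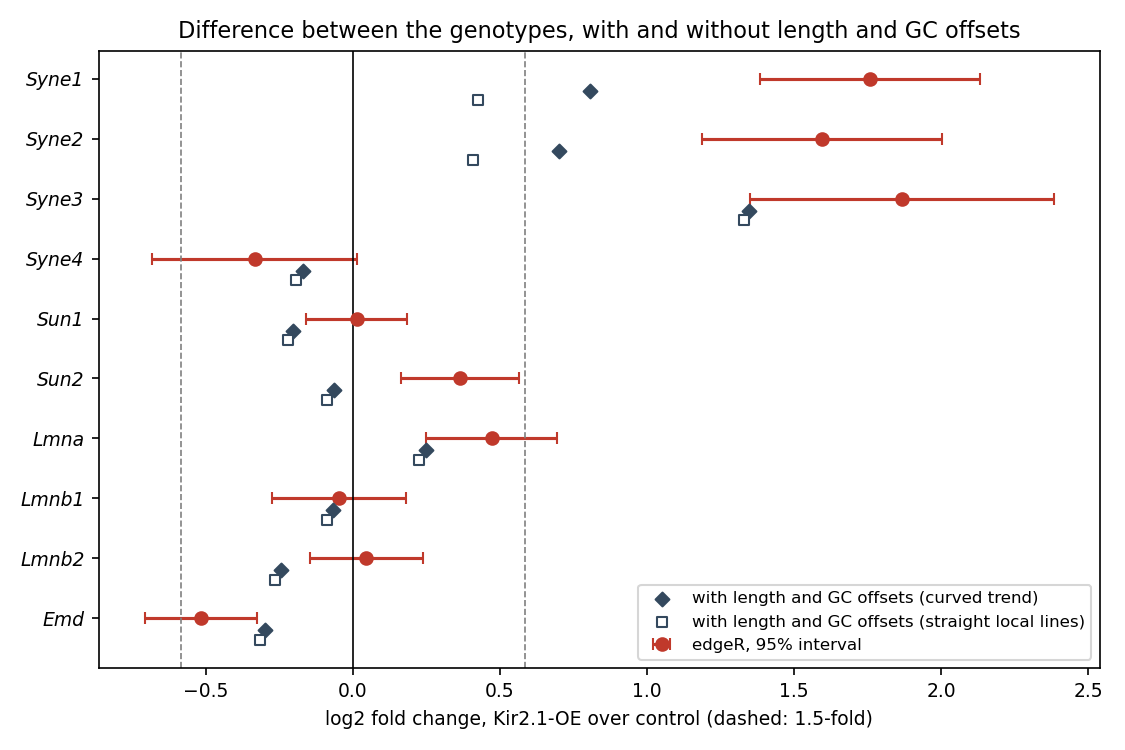
Log2 fold changes of the 10 genes, Kir2.1-OE over control (horizontal axis), with edgeR's 95% interval (red) and with length and GC offsets from a curved trend (diamonds) or straight local lines (squares); dashed lines mark 1.5-fold. Syne3 stays at 1.35 and 1.33 with the offsets, and Syne1 and Syne2 move from 1.76 and 1.59 to 0.42 and 0.41 with straight lines.

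Markers of other cell types also moved with the genotype, and their part in these results was not tested. Over all genes tested 15.5% were called higher and 5.08% lower. Of 8 spiral ganglion neuron markers, 5 were called higher, and their summed level was 1133 to 2194 CPM in Kir2.1-OE and 691 to 926.7 CPM in control libraries. Of 6 glia markers 3 were called higher (9704 to 12840 CPM against 6850 to 8818 CPM), as were 3 of 6 cartilage and bone markers (14600 to 18180 CPM against 7072 to 8803 CPM). Of 4 red blood cell markers 3 were called lower (210.5 to 259.9 CPM against 329.8 to 910 CPM), and so were 2 of the 3 melanocyte markers tested of 4 listed (9.65 to 12.4 CPM against 23.2 to 28.3 CPM). The 910 CPM was that of control replicate 1, and the other controls had 329.8 and 385.1 CPM. Of 8 supporting cell markers 2 were called higher and 1 lower (2488 to 2888 CPM against 2222 to 2380 CPM), and of 6 fibrocyte and mesenchyme markers 1 and 1 (4563 to 5229 CPM against 4155 to 5526 CPM). The 4 macrophage markers (138.8 to 147.3 CPM against 118.9 to 129.2 CPM) and the 2 skeletal muscle markers tested of 6 listed (26.4 to 30.4 CPM against 25.6 to 30.9 CPM) gave no call. With the offsets the median log2 fold change went from 0.89 to 1.01 for the neuron markers, from 0.60 to 0.57 for glia and from 0.64 to 0.38 for cartilage and bone. The 5 neuron markers stayed called with the offsets. Acan was still called higher, but Col2a1 and Sox9 were not. Hbb-bt was still called lower, but Hba-a1 and Alas2 were not. No marker of these lists had a count of 0 in every library.

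Other genes of the same machinery were read as 4 lists, 77 genes in all, of which 73 were tested. Of those, 17 were called higher and 4 lower, against 15.5% and 5.08% of all genes. The cytoplasmic partners of the nesprins held most of the higher calls, with 11 of 20 called higher, against 15.5% of all genes, and 0 lower (edgeR; also 0 at an unadjusted p under 0.05 and by DESeq2 and limma-voom), a median log2 fold change of 0.63, and 5 called higher with the offsets, against 6.43%. Dst, a giant linker of actin, microtubules and intermediate filaments, had the highest log2 fold change of the list, 2.27 (4685 ± 868 against 974 ± 163 normalized counts, mean ± SD, n = 3; adjusted p = 1.15e-04, edgeR). Plec, whose protein plectin binds nesprin-3, had 4077 ± 380 against 1366 ± 263 (log2 fold change 1.58, adjusted p = 1.29e-04), but 0.37 and no call with the offsets, for a transcript of 15455 nt. Kif5b, the motor chain that nesprin-4 binds with its light chains, had a log2 fold change of 0.65 (adjusted p = 0.00522) and the kinesin light chain gene Klc1 one of 0.61 (adjusted p = 0.00226), the smallest called. With the offsets Klc1 was called (0.59) and Kif5b was not (0.46, adjusted p = 0.0313). Pafah1b1, which encodes the dynein regulator LIS1, was the most abundant partner not called, at 12415 ± 510 against 11368 ± 211 (log2 fold change 0.13).

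Higher calls were fewer in the other lists, and all 4 lower calls lay there. Over all genes 15.5% were called higher and 5.08% lower, and with the offsets 6.43% and 3.44%. Of the other KASH, SUN and torsin genes, 9 of 12 were tested (Sun3, Sun5 and Ccdc155 had too few counts) and 0 were called in either direction by edgeR, DESeq2 or limma-voom, with 1 higher and 2 lower at an unadjusted p under 0.05 and a median of -0.14. Tor1aip2, which encodes an activator of torsin ATPases in the endoplasmic reticulum, was their most abundant member at 7479 ± 181 against 8241 ± 284 normalized counts (log2 fold change -0.14, adjusted p = 0.107), and it was called lower with the offsets (-0.60). Among 15 tested genes, of 16 listed, of the inner nuclear membrane and lamina, 1 was called higher, Ankle2 (log2 fold change 0.63, adjusted p = 0.0011), and 1 lower, Banf1, whose protein BAF ties chromatin to emerin and its relatives (-0.60, adjusted p = 8.83e-04), and neither was called with the offsets. Zmpste24, the protease that matures lamin A, was not called at 3548 ± 186 against 4160 ± 231 (log2 fold change -0.23). Of 29 nuclear pore genes 5 were called higher and 3 lower, against 15.5% and 5.08% of all genes. They were led by Tpr, a filament protein of the nuclear basket, at 2886 ± 664 against 927 ± 264 (1.64, adjusted p = 3.16e-04, edgeR). The lowest log2 fold change among them was that of Nup43 (-0.68, adjusted p = 0.0137, edgeR). With the offsets 1 pore gene was called higher, Tpr (1.15), and 1 lower, and Nup43 was not called (-0.39, adjusted p = 0.113). Sec13, shared by the pore and by transport vesicles, had a log2 fold change of -0.41 and was not called.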

How the data were processed

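The authors deposited each expected count, Salmon's estimate of the reads of a gene, which need not be whole (6.95% of the values were not), for 3 Kir2.1-OE and 3 control pools, 1 table per library, neither divided by length nor scaled. The authors made poly(A) libraries, sequenced read pairs on a NovaSeq and mapped them to mm10 with the nf-core RNA-seq workflow; tool versions, annotation and strand setting are not given in the sources used here, so reads of genes that overlap on opposite strands may not be told apart. The study's own test was DESeq2's. Samples were grouped by the genotype in the labels. The table of control replicate 1 carries another number in its column name than in its label, and the label was used. Libraries of a group differed by more than sampling noise (chi-square per degree of freedom 16.3 to 32.4), so each counted as 1 replicate, and p-values measure the spread between pools.

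Counts were rounded and fitted with edgeR 4.0.16 in R 4.3.3 (TMM, factors 0.984 to 1.01; filterByExpr; quasi-likelihood test; Benjamini-Hochberg over 15303 genes). A gene was called at an adjusted p under 0.05 and a fold change above 1.5, and also read with glmTreat against a log2 fold change of 0.6. Normalized counts are counts divided by TMM size factors; fold changes are log2. Levels per length and offsets used the longest transcript in GENCODE vM21 (23376 symbols matched directly, 650 by an older symbol, 385 not). Offsets came from a loess trend (span 0.4, local quadratic) on log length and GC content; genes without a length had no correction. Markers and lists are given by counts and medians. Ratios were tested by exact permutation. The likeness of genes used log2 of CPM plus 0.1 and genes with a mean count of at least 50. The edgeR step was tested on simulated data.

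The genes, lists and tests were chosen with earlier results of these data known. Genes outside the 10 were named by rule. From each list came the called genes with the largest and smallest log2 fold change and the most abundant gene not called. Kif5b and Plec were named as nesprin partners, and so were the 3 genes most like Syne4 and Sun1. The cell type markers named singly were chosen after their values were seen. The alternatives were DESeq2 1.42.0 size factors, library size alone, upper quartile scaling, no filter, at least 10 counts in every library, a replicate block, length with and without GC offsets, each library left out, DESeq2's Wald test against 0 and against 0.6, limma-voom (limma 3.58.1), adjusted p alone, unrounded counts, and other lengths for the levels; straight local lines, the median coding transcript and left-out libraries in the offsets, and ratios with the trend taken out, were added after seeing the data. Intervals cover the spread between pools as the model estimates it.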

Additional observations from a re-analysis of the deposited data

How the results depend on the processing

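The 3 higher calls (Syne1, Syne2, Syne3) were made under each alternative with 3 exceptions: straight local lines left 1, Syne3, and the offsets lost Syne1 without control replicate 1 and Syne2 without Kir2.1-OE replicate 1. The adjusted p alone gave 5 higher and 1 lower, and upper quartile scaling called 1 gene lower, Emd. Log2 fold changes whose sign turned were all uncalled: Sun1 had -0.077 with upper quartile scaling, -0.20 with length and GC offsets, -0.14 with length alone and -0.22 with straight lines. Sun2 had -0.064 with length and GC offsets and -0.087 with straight lines. Lmnb2 had -0.044 with upper quartile scaling, -0.24 with length and GC offsets, -0.033 with length alone, -0.26 with straight lines and -0.36 with the median coding transcript. Leaving out 1 library gave ranges of -0.054 to 0.054 for Sun1 and -0.15 to 0.048 for Lmnb1. With the length and GC trend taken out, the ratio of Lmnb1 to Lmnb2 turned to 0.186, Sun1 to Sun2 moved to -0.147, Syne4 to Syne3 to -1.527 and Syne4 to Syne1 plus Syne2 to -0.857. The cause of these changes was not tested.

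Same-numbered libraries did not deviate together (correlations -0.0984, -0.222 and -0.209), so the numbers were not read as pairs. With the replicate block 3 of the 10 genes were called higher and 0 lower, and over all genes 2220 higher and 718 lower, against 2365 and 778. With offsets and the replicate block these were 792 and 449, the other 4 lists 5 higher and 2 lower, and Sun1 had -0.20, Sun2 -0.057 and Lmnb2 -0.24.

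Over all genes, higher calls were 984 with length and GC offsets, 1087 with length alone, 900 with straight lines, 1361 with the median coding transcript, 583 with DESeq2 against 0.6, 832 with glmTreat and 4184 with the adjusted p alone. Lower calls were 1378 with upper quartile scaling, which gave 1897 higher, 30 with DESeq2 against 0.6, 57 with glmTreat and 3590 with the adjusted p alone. In the 4 lists, higher calls (17) became 6 with length and GC offsets, 8 with length alone, 4 with straight lines, 7 with the median coding transcript, 8 with DESeq2 against 0.6, 8 with glmTreat and 26 with the adjusted p alone. Lower calls (4) became 2 with length and GC offsets, straight lines or the median coding transcript, 0 with DESeq2 against 0.6 or glmTreat and 13 with the adjusted p alone, and lay between 1 (without control replicate 1) and 4 with 1 library left out.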
